A study of Mus musculus with 3 samples.

Results

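The 31 genes described here carry out glycolysis or respond to low oxygen, and they were followed by symbol through single-cell RNA sequencing of mouse forelimb buds at embryonic day 9.5. They are a fixed list, all present among the 31054 features of each matrix, and the rule that lists them uses no measured value. Mutant embryos were Esco2fl/fl;Prrx1-CreTg/0 and control embryos were Esco2fl/fl, so both groups carried the floxed Esco2 alleles and the mutants alone carried the Cre transgene. Esco2 acetylates cohesin, which holds sister chromatids together, and the Prrx1 promoter drives Cre in the limb bud mesenchyme, so ectoderm, vessels and blood in the mutants are not meant to lose the gene. The libraries analysed here were mutant 1, mutant 2 and control 1. Each stood for 6 limb buds, pooled from 3 samples of 2 buds, of which 2 samples were male and 1 was female. The sources do not say whether the libraries come from separate litters. In tests of mutants over control within a class, the spread that p-values measure is that between libraries, which may be technical. A single control library has no replicate of its own. Fits with a term for each library measure instead how a difference within libraries varied from library to library. In some fits, named below, the spread was shared over genes rather than each gene's own.

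Glycolysis splits glucose into pyruvate in a series of enzyme steps, and lactate dehydrogenase turns pyruvate into lactate. When oxygen is scarce, the alpha subunits of the hypoxia-inducible factors (HIFs) escape the prolyl hydroxylases that mark them for destruction, pair with a beta subunit and bind short DNA elements with the core RCGTG. Glucose transporters, many glycolytic enzymes, mitophagy receptors and collagen prolyl hydroxylases are among the known HIF targets, and the early mouse embryo, with little circulation, is known to rely strongly on glycolysis. Of the 31 genes, 16 belong to the glycolytic route: 3 bring in and trap glucose, 6 act in upper glycolysis, 5 act in lower glycolysis and 2 set the fate of pyruvate. The other 15 are hypoxia response genes: 2 HIF alpha subunits, 2 HIF prolyl hydroxylases and 11 further targets and modulators.

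The matrices held 7219 barcodes in mutant 1, 8755 in mutant 2 and 6527 in control 1, with between 178159788 and 225032823 unique molecular identifiers (UMIs) each. After filtering, 12322 of 22501 barcodes were kept, 36 of them with a barcode seen in more than 1 library. Cells were placed in classes by marker genes that included none of the 31. The mesenchyme held 1351, 2307 and 1267 cells in mutant 1, mutant 2 and control 1, the surface ectoderm 428, 318 and 322, the endothelium 405, 441 and 562, and the primitive erythroid cells 620, 478 and 446. UMIs of the CRE feature numbered 67 and 134 in mesenchyme of mutant 1 and mutant 2 and 0 in that of control 1, with at most 1 in each library of the other 3 classes. Esco2 stood at 21.8 CPM (counts relative to the library's summed UMIs of that class) in mesenchyme of both mutant libraries and at 31.8 CPM in control 1, but the reads come from transcript ends and the deleted part is not given, so this does not measure the deletion. Cdkn1a, a p53 target that stops the cell cycle, stood at 60.1 and 64.4 CPM in mesenchyme of the mutants and at 1.85 CPM in control 1.

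The stretches of promoter below are shown because these genes carry the contrasts described further on: the first 5 belong to genes on which the mutant libraries disagreed in mesenchyme, and the last 2 to enzymes that stood below the control in both mutants. They are the 60 bases around the HIF core nearest to the gene's start in the RefSeq promoters of the mouse build GRCm38.p6. The sequence is that of the gene's own strand, and capitals mark ACGTG or GCGTG, or the same core read on the other strand as CACGT or CACGC. Positions are Bnip3 (chr7:138909509-138909568, minus strand), Pdk1 (chr2:71873119-71873178, plus strand), Slc2a1 (chr4:119108682-119108741, plus strand), P4ha2 (chr11:54100828-54100887, plus strand), Pfkp (chr13:6648772-6648831, minus strand), Ldha (chr7:46845743-46845802, plus strand) and Pgk1 (chrX:106186942-106187001, plus strand).
Bnip3: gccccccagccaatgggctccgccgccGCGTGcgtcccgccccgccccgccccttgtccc
Pdk1: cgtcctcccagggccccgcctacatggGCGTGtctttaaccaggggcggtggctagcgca
Slc2a1: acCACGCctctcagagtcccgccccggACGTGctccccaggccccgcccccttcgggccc
P4ha2: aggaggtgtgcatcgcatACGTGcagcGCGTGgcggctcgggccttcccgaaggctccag
Pfkp: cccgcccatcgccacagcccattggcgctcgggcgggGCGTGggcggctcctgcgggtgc
Ldha: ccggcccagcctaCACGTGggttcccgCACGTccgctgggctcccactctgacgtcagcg
Pgk1: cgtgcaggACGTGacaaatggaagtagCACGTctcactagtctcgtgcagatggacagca

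A core was looked for in the 250 bases before the start, on both strands, and CACGTG counts on each. Of the 31 genes, 28 had a RefSeq promoter in the table used, and the first promoter of 21 of the 28 (75%) held a core. The share was 38.6% over all 32851 promoters and 59.9% over the first promoters of the 7942 matched genes tested in mesenchyme. Bnip3 and Ldha each held 5 matches, while Tpi1, Gpi1, Aldoa, Pkm, Hk1, Mif and Mxi1 held none in this window. Among members with the order mutant 1, control 1, mutant 2 in mesenchyme 11 of 12 matched promoters held a core, and among those below the control in both mutants 7 of 12 did. These matches describe letters and show neither binding nor a cause.

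Whether loss of Esco2 in mesenchyme was accompanied by a change of these genes was tested per class on UMIs summed over each library, with edgeR's quasi-likelihood test and Benjamini-Hochberg adjustment over all genes that averaged 5 CPM or more. No member passed an adjusted p of 0.05 in any of the 4 classes, by edgeR or by DESeq2. In mesenchyme 26 members were tested among 10200 genes, of which 0.882% were called higher and 0.578% lower, and their median log2 fold, mutants over control, was -0.16, against -0.01 over all genes tested. In ectoderm 28 members were tested, with a median of 0.00, in endothelium 30, with a median of -0.03, and in erythroid cells 23, with a median of -0.10. In those 3 classes edgeR called 0 genes of 10699, 9756 and 7256, with 1077, 685 and 185 genes at an unadjusted p under 0.05, while DESeq2 called 14 higher and 14 lower in ectoderm, 21 and 26 in endothelium, and 7 and 16 in erythroid cells.

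At an unadjusted p under 0.05, edgeR found 2 members in mesenchyme, against 5.25% of the genes tested there, 3 in ectoderm, 0 in endothelium and 0 in erythroid cells, and DESeq2 gave 3, 3, 1 and 0. The 2 in mesenchyme were Pfkp and Eno1, and the 3 in ectoderm were Slc2a1, Pfkp and Mif. The prior degrees of freedom were infinite in the mesenchyme fit, so its p-values and SEs rest on a spread shared over genes. With the prior degrees of freedom of the ectoderm fit, 0 members in mesenchyme had an unadjusted p under 0.05 by edgeR, beside 233 of the 10200 genes. With 1 residual degree of freedom the edgeR test is weak here: in counts simulated for the mesenchyme comparison over 10200 genes, 23.7% of the genes changed by 1 on the log2 scale were recovered and 100% of those changed by 3. Leaving out mutant 1 gave a median log2 fold in mesenchyme of -0.52, and leaving out mutant 2 gave 0.14, so the sign of the median depended on the library.

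In mesenchyme 13 of the 26 tested members (50%) stood above control 1 in mutant 1 and below it in mutant 2, an order shown by 22.9% of the genes tested, and none showed the opposite order, shown by 23.3%. The mesenchyme of the libraries was spread unevenly over clusters of like cells: cluster 1 held 263, 993 and 201 gated cells of mutant 1, mutant 2 and control 1, cluster 5 held 75, 179 and 378, and cluster 12 held 118, 182 and 0. The part of these shares in the order was not tested. With the clusters lacking control cells left out, the median log2 fold was -0.11. The members called numbered 0 with or without those clusters, so that count does not bear on the order. These 13 were the transporter and hexokinases Slc2a1, Hk1 and Hk2, the regulated steps Pfkp and Pfkfb3, the gatekeeper kinase Pdk1, the hydroxylase Egln1, and the targets Bnip3, Bnip3l, Ankrd37, P4ha1, P4ha2 and Kdm3a. Another 12 (46.2%) stood below control 1 in both mutants, as did 26.7% of the genes tested, and they were 10 glycolytic enzymes with Mif and Hif1a. Mxi1 alone stood above control 1 in both, against 27.1% of the genes tested. The ratio of mutant 1 to mutant 2 reached 1.5-fold for 12 of the 26, against 7.54% of the genes tested, and the reverse ratio reached it for none, against 0.931%. Set against the control at the same 1.5-fold, mutant 1 had 4 members higher (Pfkp, Pfkfb3, P4ha2 and Mxi1; 4.69% of the genes tested) and 1 lower (Eno1; 1.86%). Mutant 2 had 0 higher (3.13%) and 10 lower (5.96%), namely Slc2a1, Pfkl, Pfkp, Pfkfb3, Tpi1, Eno1, Pdk1, Bnip3, P4ha1 and P4ha2.

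Slc2a1 (ENSMUSG00000028645, GRCm38 chromosome 4, 119108711 to 119137983, plus strand) encodes the glucose transporter GLUT1, and its mesenchymal level was 99.7 CPM in mutant 1 and 34.6 CPM in mutant 2, against 74.7 CPM in control 1. Mutant 1 was therefore the highest library and mutant 2 the lowest, with the control between them. On the log2 scale mutant 1 differed from control 1 by 0.42 (95% interval 0.36 to 0.47) and mutant 2 by -1.11 (-1.17 to -1.05). These intervals, exact for a ratio of 2 counts, cover counting error only. Hk2, the hexokinase that traps glucose as its phosphate, had 137 CPM in mutant 1 and 86.3 CPM in mutant 2, against 101.3 CPM in control 1, while Hk1 was low in all libraries at 11.9, 9.62 and 9.87 CPM in mutant 1, mutant 2 and control 1.

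Pfkp, the platelet-type phosphofructokinase (ENSMUSG00000021196, chromosome 13, 6579768 to 6648777, minus strand), had 985 UMIs or 15.9 CPM in mutant 1 and 323 UMIs or 2.94 CPM in mutant 2, against 391 UMIs or 6.09 CPM in control 1. It had the widest gap of the tested members, a log2 ratio of mutant 1 to mutant 2 of 2.43. Pfkfb3, which makes the allosteric activator of phosphofructokinase, stood at 24.9 CPM in mutant 1 and 10.2 CPM in mutant 2, against 15.5 CPM in control 1. Pdk1 (ENSMUSG00000006494, chromosome 2, 71873224 to 71903858, plus strand), the kinase that switches off pyruvate dehydrogenase, stood at 59.3 CPM in mutant 1 and 16.5 CPM in mutant 2, against 43.0 CPM in control 1. For all 3 genes the control lay between the mutants, whereas Pfkl, another phosphofructokinase, stood below the control in both.

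Among the oxygen sensors, Egln1, the main HIF prolyl hydroxylase and itself a HIF target, had 68.7 CPM in mutant 1 and 33.2 CPM in mutant 2, against 48.2 CPM in control 1. Hif1a, the oxygen-regulated subunit, did not share this pattern at the RNA level: 85.4 CPM in mutant 1 and 84.6 CPM in mutant 2, against 86.7 CPM in control 1, with log2 ratios of -0.02 (-0.08 to 0.03) and -0.04 (-0.08 to 0.01). HIF-1 alpha is controlled mainly through the stability of the protein, which these data do not measure. Epas1, which encodes HIF-2 alpha, and the second hydroxylase Egln3 were too low in mesenchyme to be tested, at 0.710, 0.647 and 1.14 CPM and at 4.10, 1.52 and 1.23 CPM in mutant 1, mutant 2 and control 1.

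The mitophagy receptor Bnip3 (ENSMUSG00000078566, chromosome 7, 138890836 to 138909519, minus strand) was among the most divided genes, with 93.5 CPM in mutant 1 and 25.5 CPM in mutant 2, against 66.7 CPM in control 1. Its log2 ratio over the control was 0.49 (0.43 to 0.55) in mutant 1 and -1.39 (-1.46 to -1.32) in mutant 2. Its relative Bnip3l varied less, with 165 CPM in mutant 1 and 136 CPM in mutant 2, against 163 CPM in control 1.

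The collagen prolyl hydroxylase subunits P4ha1 and P4ha2 shared the order. P4ha1 had 151 CPM in mutant 1 and 70.6 CPM in mutant 2, against 113 CPM in control 1. P4ha2 (ENSMUSG00000018906, chromosome 11, 54100095 to 54131665, plus strand) had 40.5 CPM in mutant 1 and 16.7 CPM in mutant 2, against 26.7 CPM in control 1. The histone demethylase Kdm3a stood at 68.7 CPM in mutant 1 and 37.0 CPM in mutant 2, against 47.5 CPM in control 1. In each of these the control fell between the mutants, nearer to mutant 2 on the log2 scale for Kdm3a.

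Ankrd37, an ankyrin repeat protein induced by hypoxia, had 13.96 CPM in mutant 1 and 7.44 CPM in mutant 2, against 9.40 CPM in control 1. Mxi1, a MYC antagonist, had 53.6 CPM in mutant 1 and 28.01 CPM in mutant 2, against 27.7 CPM in control 1, so only mutant 1 stood apart. The untested Adm, a vasodilator peptide, had 298 UMIs or 4.81 CPM in mutant 1 and 99 UMIs or 0.902 CPM in mutant 2, against 160 UMIs or 2.49 CPM in control 1. Ndrg1, a stress-responsive gene, had 6.32 CPM in mutant 1 and 0.848 CPM in mutant 2, against 2.48 CPM in control 1. Both had the order of Bnip3 at levels too low for the test. Car9, a carbonic anhydrase, had 22, 52 and 14 UMIs in mesenchyme of mutant 1, mutant 2 and control 1 and was tested in no class.

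The abundant enzymes formed the other group, in which both mutants stood below the control. Eno1, enolase (ENSMUSG00000063524, chromosome 4, 150236721 to 150248879, plus strand), had 712 CPM in mutant 1 and 672 CPM in mutant 2, against 1180.3 CPM in control 1. Its log2 fold of -0.77 (SE 0.39) was the lowest of the members, with an unadjusted p of 0.046 and an adjusted p of 0.914 by edgeR's quasi-likelihood test. Both mutant libraries thus lay below the control by over 1.5-fold, and the test across all genes did not call it.

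Other enzymes of the same route had smaller gaps. Pfkl, the liver-type phosphofructokinase, had 113 CPM in mutant 1 and 87.3 CPM in mutant 2, against 152 CPM in control 1. Aldoa, aldolase, had 579 CPM in mutant 1 and 557 CPM in mutant 2, against 827 CPM in control 1. Tpi1, triose phosphate isomerase, had 411 CPM in mutant 1 and 318 CPM in mutant 2, against 516 CPM in control 1. In all 3 the mutants were both lower than the control, by log2 ratios between -0.33 and -0.80.

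Further down the pathway Gapdh had 1680.0 CPM in mutant 1 and 2011 CPM in mutant 2, against 2507 CPM in control 1. Pkm, pyruvate kinase, had 1032 CPM in mutant 1 and 1052 CPM in mutant 2, against 1372 CPM in control 1. Ldha, which makes lactate, had 1312 CPM in mutant 1 and 1271 CPM in mutant 2, against 1644 CPM in control 1. Gpi1, Pgk1, Pgam1 and Mif, a cytokine, also stood below the control in both mutants, with edgeR log2 folds between -0.47 and -0.25 and adjusted p-values of 1.00. Counts of some enzymes may be split among near-identical copies: 66.2% of the 60-base words at the transcript ends of Eno1, 61.1% of those of Gapdh and 53.5% of those of Mif also occur in other genes. Eno1b, a copy of Eno1 in the matrices, had 7.35 CPM in mutant 1 and 11.6 CPM in mutant 2, against 16.8 CPM in control 1, lower in the mutants as Eno1 was.

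**Figure D1:**
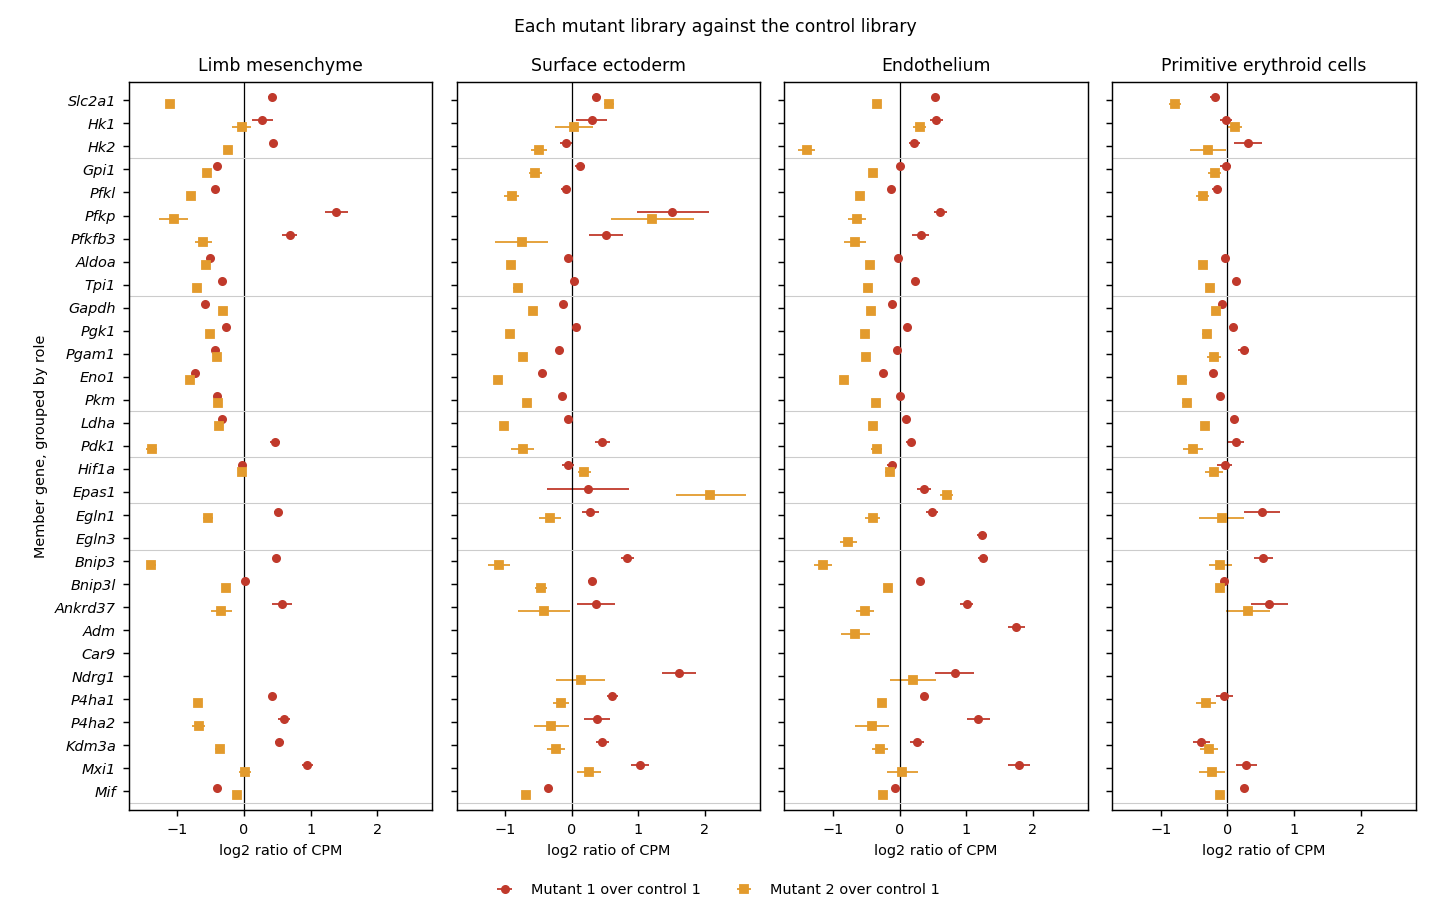
Log2 ratio of CPM of mutant 1 (circles) and mutant 2 (squares) over control 1 for the members tested in each of 4 cell classes, with 95% counting intervals as bars and grey lines between roles. In mesenchyme Slc2a1, Pfkp, Pdk1 and Bnip3 lie on opposite sides of 0 for the 2 mutants, while Aldoa, Eno1, Pgam1, Pkm and Ldha lie below 0 for both.

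The 16 glycolysis genes added up to 7842 CPM in mesenchyme of mutant 1 and 7271 CPM in mutant 2, against 9921 CPM in control 1, taken over all UMIs. The 15 hypoxia response genes added up to 2866 and 2850 CPM in the mutants, against 3162 CPM in control 1, and Mif, at 1994, 2452 and 2645 CPM, gave most of that sum. Weighting the genes equally changed the comparison for mutant 1: the mean of log2(CPM + 5) was 7.83 in mutant 1 and 7.31 in mutant 2, against 7.83 in control 1, over the glycolysis genes, and 5.49 and 4.83 in the mutants, against 5.12 in control 1, over the hypoxia response genes. After thinning every cell to 5000 UMIs, a mesenchyme cell held a median of 32 glycolysis UMIs in mutant 1 and 35 in mutant 2, against 53 in control 1, and 12, 14 and 16 UMIs of the hypoxia response genes. Thinning left out 90, 111 and 157 shallower cells of mutant 1, mutant 2 and control 1. The unthinned medians per 5000 UMIs were 32.6, 35.7 and 53.8 for glycolysis.

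Endothelium, which is not a target of this Cre and held at most 1 CRE UMI, showed the same split between the mutant libraries. Of its 30 tested members, 19 (63.3%) stood above control 1 in mutant 1 and below it in mutant 2, against 14.4% of the genes tested, and 0 had the opposite order, against 14.97%. Another 4 stood above the control in both mutants, against 35.5% of the genes tested, and 7 below it in both, against 35.2%. The ratio of mutant 1 to mutant 2 reached 1.5-fold for 15 of the 30, against 6.31% of the genes tested, and the reverse for 0, against 0.964%. Over the control by 1.5-fold, mutant 1 had 8 members higher, against 3.8% of the genes tested, and 0 lower, against 1.74%. Mutant 2 had 1 higher, Epas1, against 2.92%, and 8 lower, against 5.35%. The median log2 ratio over the control was 0.29 in mutant 1 and -0.41 in mutant 2.

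Several hypoxia targets lay far apart. Bnip3 had 126 CPM in endothelium of mutant 1 and 23.9 CPM in mutant 2, against 52.8 CPM in control 1. Egln3, the most hypoxia-responsive of the HIF hydroxylases, had 110.4 CPM in mutant 1 and 27.5 CPM in mutant 2, against 46.9 CPM in control 1. Adm had 51.2 CPM in mutant 1 and 9.60 CPM in mutant 2, against 15.2 CPM in control 1. In each the mutant libraries, of the same genotype, lay on either side of the control.

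Ankrd37 followed with 72.1 CPM in mutant 1 and 25.04 CPM in mutant 2, against 35.9 CPM in control 1. Mxi1 had 33.6 CPM in mutant 1 and 10.0 CPM in mutant 2, against 9.71 CPM in control 1, again with only mutant 1 apart. Slc2a1 had 456 CPM in mutant 1 and 251 CPM in mutant 2, against 316 CPM in control 1. Epas1, the HIF alpha subunit typical of endothelium, went another way: 50.8 CPM in mutant 1 and 64.4 CPM in mutant 2, against 39.4 CPM in control 1, above the control in both. Its log2 fold of 0.55 (SE 0.20) had an adjusted p of 0.683 by edgeR. Summed erythroid markers in the gated endothelium stood at 1303 CPM in mutant 1 and 444 CPM in mutant 2, against 985 CPM in control 1, and their part in these differences was not tested.

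In surface ectoderm 12 of 28 tested members (42.9%) had the order mutant 1, control 1, mutant 2, against 13.5% of the genes tested, and 1, Hif1a, had the opposite order, against 12.5%. Another 6 stood above the control in both mutants, against 36.5% of the genes tested, and 9 below it in both, against 37.5%. The ratio of mutant 1 to mutant 2 reached 1.5-fold for 18 of the 28, against 5.4% of the genes tested, and the reverse for 1, Epas1, against 3.73%. Over the control by 1.5-fold, mutant 1 had 5 members higher, against 7.03% of the genes tested, and 0 lower, against 3.54%. Mutant 2 had 2 higher, Pfkp and Epas1, against 6.66%, and 12 lower, against 5.04%, among them Aldoa, Tpi1, Pgk1, Eno1, Ldha, Pdk1 and Bnip3. Bnip3 had 152 CPM in ectoderm of mutant 1 and 40.0 CPM in mutant 2, against 85.1 CPM in control 1. For some enzymes mutant 1 lay near the control here: Ldha had 1223 CPM in mutant 1 and 629 CPM in mutant 2, against 1271 CPM in control 1, and Pgk1, phosphoglycerate kinase, 584 and 294 CPM in the mutants, against 558 CPM in control 1. The median log2 ratio of mutant 1 over the control was 0.08 in upper and -0.14 in lower glycolysis, against -0.37 and -0.43 in mesenchyme. Eno1 was not near the control, at 694 CPM in mutant 1 and 446 CPM in mutant 2, against 895 CPM in control 1, taken over all UMIs.

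Slc2a1 had 223 CPM in ectoderm of mutant 1 and 255 CPM in mutant 2, against 173 CPM in control 1, but its order varied with the cells taken. Ectoderm cells under 2% mitochondrial UMIs had 221 and 66.5 CPM of Slc2a1 in the mutants, against 138 CPM in control 1, and those of 2 to 5% had 229 and 314 CPM, against 179 CPM. At 50000 UMIs or more Slc2a1 stood at 194 CPM in mutant 1 and 112 CPM in mutant 2, against 154 CPM in control 1. Over all ectoderm cells its log2 fold of 0.47 (SE 0.14) had an unadjusted p of 0.024 and an adjusted p of 0.489 by edgeR. Pfkp had 107, 52 and 42 UMIs in mutant 1, mutant 2 and control 1, or 6.95 and 5.66 CPM in the mutants and 2.46 CPM in control 1. Epas1 had 3.12 CPM in mutant 1 and 11.1 CPM in mutant 2, against 2.63 CPM in control 1, so mutant 2 alone stood apart. The summed endothelial markers in the gated ectoderm were 8.90 CPM in mutant 1 and 9.80 CPM in mutant 2, against 10.4 CPM in control 1. Ndrg1 stood at 30.7 CPM in mutant 1 and 11.1 CPM in mutant 2, against 10.1 CPM in control 1.

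In primitive erythroid cells, which carry oxygen and are not a target of this Cre, 10 of 23 tested members (43.5%) had the order mutant 1, control 1, mutant 2, against 19.9% of the genes tested, and 11 stood below the control in both mutants, against 34.4%. Over the control by 1.5-fold, mutant 1 had 1 member higher, Ankrd37, against 1.94%, and 0 lower, against 0.951%. Mutant 2 had 0 higher, against 0.551%, and 3 lower, Slc2a1, Eno1 and Pkm, against 5.14%. The 1.5-fold ratio of mutant 1 to mutant 2 was reached by 5 of the 23, namely Slc2a1, Hk2, Pdk1, Egln1 and Bnip3, against 6.56% of the genes tested. Bnip3 had 25.5 CPM in mutant 1 and 16.3 CPM in mutant 2, against 17.5 CPM in control 1, and Slc2a1 80.8 and 53.7 CPM in the mutants, against 92.1 CPM in control 1. Haemoglobin genes took 39.5% and 41.6% of the UMIs of these cells in the mutants and 36.3% in control 1.

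Across the 4 classes Pdk1, Egln1 and Bnip3 had the order mutant 1, control 1, mutant 2 every time, and Pfkl, Aldoa, Gapdh and Eno1 stood below the control in both mutants every time. The classes come from the same libraries, so these repeats are not independent, and the share of all genes that repeat an order was not computed. Members below the control in both mutants exceeded the share of all genes in mesenchyme and erythroid cells. In ectoderm and endothelium they fell short of it. Flank mesoderm held only 40, 50 and 96 cells in mutant 1, mutant 2 and control 1 and gives values without a test. Slc2a1 reached 315 CPM there in mutant 1 and 391 CPM in mutant 2, against 673 CPM in control 1, and Bnip3 226 and 38.0 CPM in the mutants, against 56.0 CPM in control 1. Summed flank markers in the gated mesenchyme were 83.3 CPM in mutant 1 and 36.2 CPM in mutant 2, against 112 CPM in control 1, and their part in the mesenchymal values was not tested.

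Whether the mutant effect itself differed between classes was asked through an interaction of genotype and class in edgeR, fitted on both classes' sums with a term for each library. Between endothelium and mesenchyme 1 of 29 members was called, Epas1, whose effect was larger in endothelium by 1.34 on the log2 scale (SE 0.31, adjusted p = 0.00148 by edgeR), in a comparison where 1.14% of the genes tested were called in that direction. Epas1 rested on 44, 71 and 73 UMIs in mesenchyme of mutant 1, mutant 2 and control 1, was below 5 CPM there and passed the filter through endothelium alone. Between erythroid cells and mesenchyme 1 of 26 members was called, P4ha2, by 2.46 (SE 0.75, adjusted p = 0.0465 by edgeR), against 1.45% of the genes tested, and it rested on 16 and 13 erythroid UMIs in the mutants and 3 in control 1. P4ha2 passed the filter through mesenchyme alone, and stood at 0.387 and 0.504 CPM in erythroid cells of the mutants, against 0.0712 CPM in control 1. Summed mesenchyme markers in the gated erythroid cells were 13.0 CPM in mutant 1 and 15.96 CPM in mutant 2, against 5.70 CPM in control 1, and their part in the P4ha2 value was not tested. Between ectoderm and mesenchyme 0 of 27 members were called by edgeR, against 1.48% of the genes tested for higher and 0.713% for lower, with 3 at an unadjusted p under 0.05, Slc2a1, Pfkp and Ndrg1. DESeq2 was not run on these terms, and the prior degrees of freedom were infinite in each of these interaction fits. Both calls ended when the spread was estimated with the prior degrees of freedom of the ectoderm fit, with adjusted p-values of 1.00 by edgeR, and 0 members were called among genes of at least 5 CPM in each of the 2 classes, which leave both of these out.

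Endothelium was next set against mesenchyme within the libraries. Of the 26 members that averaged at least 5 CPM in each of these classes, a filter chosen after seeing the data, edgeR called 15 higher and 3 lower, against 31.7% and 29.8% of the genes that passed it, with a median log2 fold of 0.48 against 0.01. With the filter on the mean of both classes together 29 members were tested, with 18 called higher, against 32.8% of the genes tested, and 3 lower, against 30.9%. Epas1, Egln3 and Adm make up the difference, which passed through endothelium alone and are given as values only. The CPM given here were scaled within a class and the folds across both classes. Epas1 had 50.8, 64.4 and 39.4 CPM in endothelium of mutant 1, mutant 2 and control 1, against 0.710, 0.647 and 1.14 CPM in their mesenchyme. Egln3 had 110.4, 27.5 and 46.9 CPM in endothelium, against 4.10, 1.52 and 1.23 CPM in mesenchyme, and Adm 51.2, 9.60 and 15.2 CPM, against 4.81, 0.902 and 2.49 CPM. Pfkp, present in both classes, was called higher by 2.67 on the log2 scale (SE 0.21).

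Glucose entry was also high in vessels. Slc2a1 stood at 456, 251 and 316 CPM in endothelium of mutant 1, mutant 2 and control 1, against 99.7, 34.6 and 74.7 CPM in their mesenchyme, a log2 fold of 2.52 (SE 0.16, adjusted p = 2.5e-06 by edgeR). The hexokinases moved apart, Hk1 being higher by 2.46 (SE 0.10) and Hk2 lower by -0.91 (SE 0.19) on the log2 scale, both called. All 6 upper glycolysis genes were called higher, but only Pgk1 of the 5 in lower glycolysis, and Ldha, Pdk1 and Ankrd37 were called higher as well. P4ha2 and Mxi1 were called lower, at log2 folds of -1.03 (SE 0.13) and -1.06 (SE 0.16).

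Surface ectoderm over mesenchyme had 8 of 26 members called higher and 5 lower among genes of at least 5 CPM in each of the 2 classes, against 24.8% and 23.9% of the genes that passed. With the filter on the joint mean, 8 of 27 were called higher, against 25.8% of the genes tested, and 6 lower, against 25.7%. Ndrg1 passed the joint filter through ectoderm alone, with 30.7, 11.1 and 10.1 CPM in ectoderm of mutant 1, mutant 2 and control 1, against 6.32, 0.848 and 2.48 CPM in their mesenchyme. Slc2a1 was called higher at 1.63 (SE 0.33), with Pdk1, Hk1, Kdm3a, Bnip3, Mxi1 and Hif1a under both filters. Mif, Ldha, Aldoa, Pfkfb3, Eno1 and Pkm were called lower, between -0.42 and -0.76, though Pkm was not under the stricter filter. The lower members called numbered 3 without mutant 1, beside 1728 of 10583 genes tested, and 2 without control 1, beside 2291 of 10754. Thinned cells gave 4 higher and 9 lower, beside 2192 and 2425 of 10771 genes.

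Erythroid cells over mesenchyme had 4 of 23 members called higher and 13 lower among genes of at least 5 CPM in each of the 2 classes, against 38% and 40.9% of the genes that passed. With the filter on the joint mean, 5 of 26 were called higher, against 39% of the genes tested, and 14 lower, against 41.9%. Pfkp, Pfkfb3 and P4ha2 passed the joint filter through mesenchyme alone. These folds are relative to the other genes tested, since haemoglobin fills much of the erythroid UMIs. With haemoglobin genes left out, the counts under the joint filter were 5 and 14, beside 3822 and 4108 of 9852 genes. Hk1, whose erythroid form is the hexokinase of red cells, stood at 47.1, 51.9 and 48.0 CPM in erythroid cells of mutant 1, mutant 2 and control 1, against 11.9, 9.62 and 9.87 CPM in their mesenchyme, a log2 fold of 3.45 (SE 0.12). Slc2a1 and Pdk1 were also called higher, as were Pfkl, under the joint filter alone, and Bnip3l, the receptor that clears mitochondria from maturing red cells, at 1.37 (SE 0.10). All 5 genes of lower glycolysis were called lower, between -0.39 for Gapdh and -2.51 for Pgam1, as were Hk2 at -2.43 and Egln1 at -1.98. Pfkfb3 had 0.581, 0.426 and 0.237 CPM in erythroid cells of mutant 1, mutant 2 and control 1, against 24.9, 10.2 and 15.5 CPM in their mesenchyme.

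**Figure D2:**
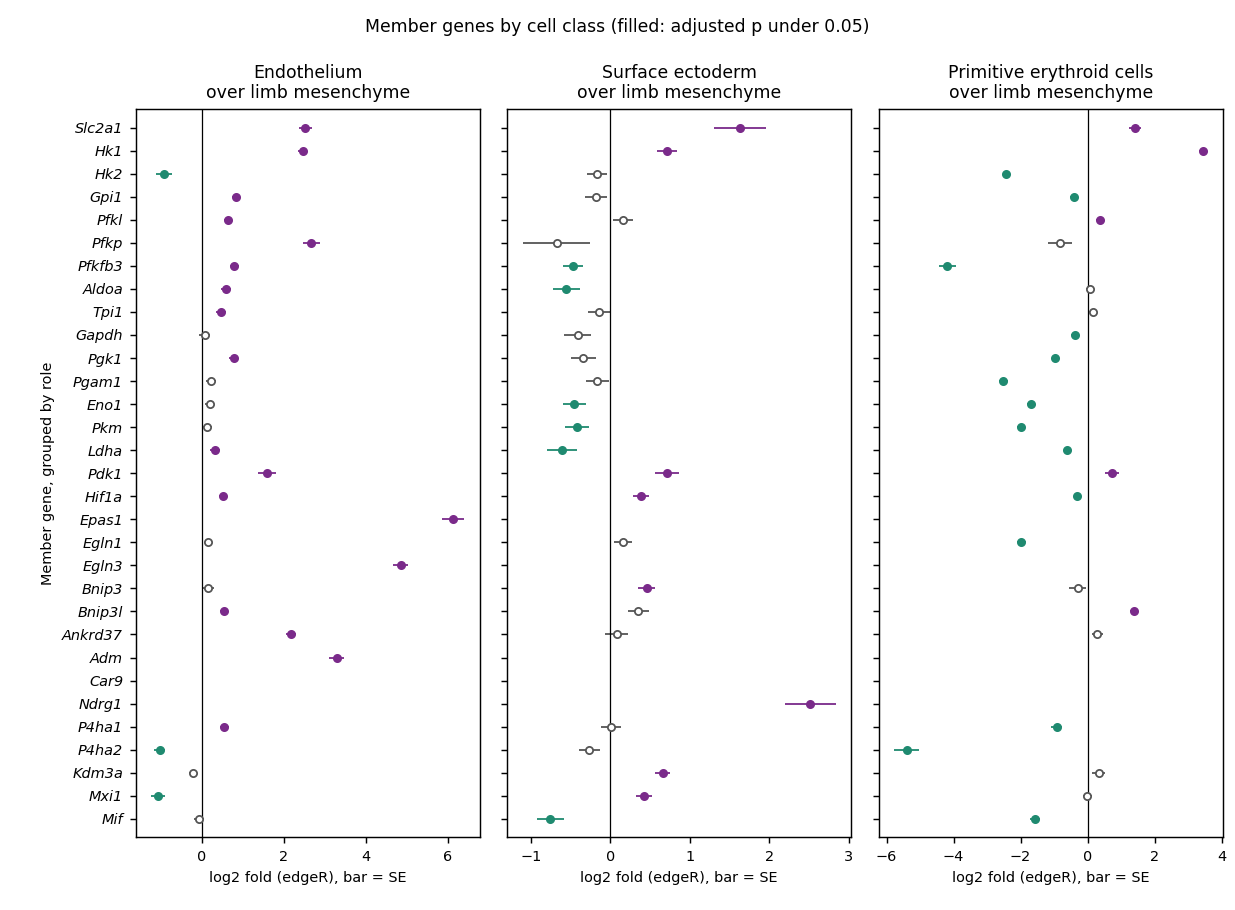
Log2 fold with SE from edgeR of endothelium, surface ectoderm and primitive erythroid cells over limb mesenchyme for the members tested, with filled points at an adjusted p under 0.05; the 3 horizontal axes differ in scale. Among the members present in both classes, Pfkp at 2.67, Slc2a1 at 2.52 and Hk1 at 2.46 lie to the right in endothelium and Hk1 at 3.45 in erythroid cells; Epas1, Egln3 and Adm in endothelium, Ndrg1 in ectoderm and P4ha2, Pfkfb3 and Pfkp in erythroid cells passed the filter through 1 class alone.

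Mutant mesenchyme cells with at least 2 Cdkn1a UMIs, 176 in mutant 1 and 279 in mutant 2, were set against cells with none, 1109 and 1887, within the 2 mutant libraries. The edgeR fit, with the library as a block, called 3 of 26 members lower and 0 higher, against 15.9% and 16.8% of the genes tested. Hk2 stood at 107 and 54.5 CPM in cells with Cdkn1a UMIs of mutant 1 and mutant 2, against 149 and 90.4 CPM in cells without, a log2 fold of -0.53 (SE 0.08, adjusted p = 2.3e-09 by edgeR). Slc2a1 stood at 78.0 and 24.1 CPM with Cdkn1a UMIs, against 109 and 36.3 CPM without, a log2 fold of -0.45 (SE 0.09, adjusted p = 1.9e-06 by edgeR). P4ha1 had the third call at -0.28 (SE 0.08, adjusted p = 0.00334 by edgeR), which was lost with the prior degrees of freedom of the ectoderm fit (adjusted p = 0.0993 by edgeR). Each was lower in cells with Cdkn1a UMIs in both libraries. The prior degrees of freedom of this Cdkn1a fit were 1101, so its p-values and SEs rest largely on a spread shared over genes. With those of the ectoderm fit, 2 of 26 members were called lower, beside 301 of the 10334 genes tested. The lowest adjusted p among the members was then 0.0421 by edgeR.

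The cells with Cdkn1a UMIs were deeper, with medians of 43125 and 51721 UMIs in mutant 1 and mutant 2, against 32928 and 48100 UMIs in the cells without. Median mitochondrial shares were 2.45% and 2.24% with Cdkn1a UMIs in mutant 1 and mutant 2, against 3.00% and 2.10% without. In cells thinned to 5000 UMIs the same 3 were called lower, against 5.33% of the genes tested, and Pgk1, Gapdh, Pgam1, Eno1 and Ldha were called higher, at log2 folds of 0.31 to 0.36, against 10.7% of the genes tested for higher. Cells were grouped by their Cdkn1a UMIs before thinning, so thinning did not undo the choice of deeper cells. The part of depth and mitochondrial share in these folds was not tested. Without the block for library 0 members were called, beside 372 genes higher and 7 lower of 10334. With the block Ddit4, a stress-induced inhibitor of mTOR, had a log2 fold of 2.84 (SE 0.10) and Vegfa, the vascular growth factor, of -0.47 (SE 0.09). Ddit4 stood at 96.9 and 75.2 CPM in cells with Cdkn1a UMIs of mutant 1 and mutant 2, against 29.0 and 4.88 CPM in cells without.

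In mesenchyme the glycolysis genes added up to 3258, 2995 and 2970 CPM in cells with 5 to 10% mitochondrial UMIs of mutant 1, mutant 2 and control 1, against 9723, 8273 and 11872 CPM in cells under 2%. Over 1261, 2196 and 1110 cells, Spearman's rho between thinned glycolysis UMIs and the mitochondrial share was -0.80, -0.73 and -0.81, as a description of cells that share a library and a fixed total. In ectoderm and endothelium it lay between -0.74 and -0.51, and in erythroid cells between -0.12 and -0.04. The median mitochondrial share of gated mesenchyme was 2.90% in mutant 1 and 2.11% in mutant 2, against 1.74% in control 1.

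**Figure D3:**
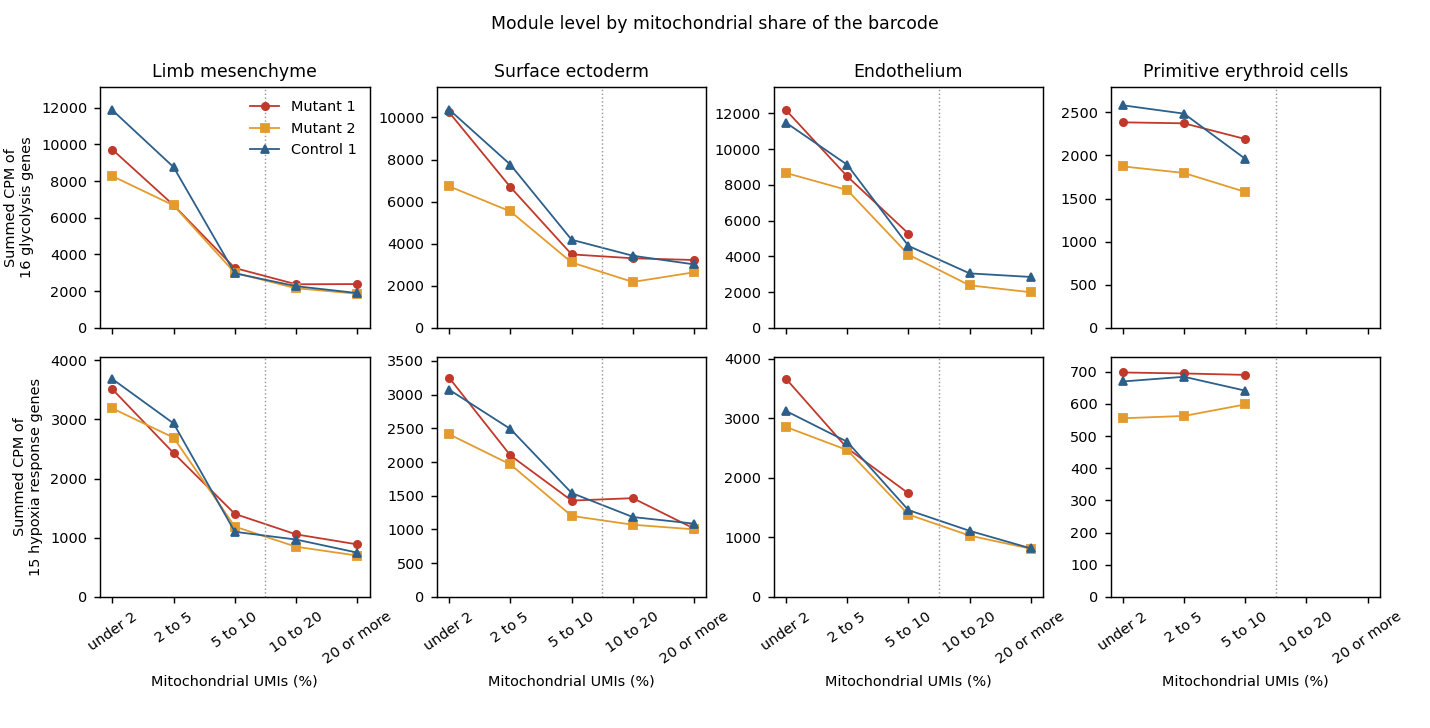
Summed CPM of the 16 glycolysis genes (top) and the 15 hypoxia response genes (bottom) in barcodes grouped by their percentage of mitochondrial UMIs, for mutant 1, mutant 2 and control 1 in 4 cell classes; groups of under 20 barcodes are not drawn and the dotted line marks the 10% filter. In mesenchyme the glycolysis sum stood at 9723, 8273 and 11872 CPM in mutant 1, mutant 2 and control 1 under 2% and at 3258, 2995 and 2970 CPM at 5 to 10%.

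With mitochondrial UMIs left out of the total, 14 of 26 members were lower and 12 higher in mesenchyme cells of 5 to 10% than in those under 2%, in the same direction in all 3 libraries, against 29.2% and 60.1% of the genes tested. Lower were Gpi1, Pfkl, Aldoa, Tpi1, Gapdh, Pgk1, Pgam1, Eno1, Pkm, Ldha, Bnip3, Bnip3l, Ankrd37 and Mif. Higher were Slc2a1, Hk1, Hk2, Pfkp, Pfkfb3, Pdk1, Hif1a, Egln1, P4ha1, P4ha2, Kdm3a and Mxi1. Gapdh stood at 549, 706 and 537 CPM in cells of 5 to 10% of mutant 1, mutant 2 and control 1, against 2278, 2346 and 3062 CPM under 2%. Slc2a1 went the other way, at 140.1, 47.0 and 100.4 CPM in mutant 1, mutant 2 and control 1 at 5 to 10%, against 91.6, 29.5 and 52.3 CPM under 2%. Of the 12 members below the control in both mutants, 11 (91.7%) were among the 14 that were lower in cells of high mitochondrial share, of which they made up 78.6%. Of the 13 members with the order mutant 1, control 1, mutant 2, 10 (76.9%) were among the 12 that were higher there, of which they made up 83.3%. The same overlaps were not computed over all genes, so these shares have no background and may not be particular to the members.

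Within ranges of mitochondrial share the order mutant 1, control 1, mutant 2 held for 13 of 26 members under 2%, 12 from 2 to 5% and 17 from 5 to 10%, against 18.9%, 27.4% and 15.4% of the genes tested. Slc2a1 in cells under 2% stood at 90.3 CPM in mutant 1 and 29.0 CPM in mutant 2, against 51.6 CPM in control 1, and in cells of 5 to 10% at 130.4 and 43.8 CPM in the mutants, against 93.6 CPM in control 1. Members below the control in both mutants numbered 11, 12 and 2 in these ranges, against 17.1%, 22.6% and 41.7% of the genes tested. Eno1 in cells under 2% stood at 939 CPM in mutant 1 and 765 CPM in mutant 2, against 1391 CPM in control 1, but in cells of 5 to 10% at 305 and 253 CPM in the mutants, against 298 CPM in control 1. The gap of the abundant enzymes was thus not seen among cells of high mitochondrial share, while that of Slc2a1, Pdk1 and Bnip3 was present in every range.

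**Figure D4:**
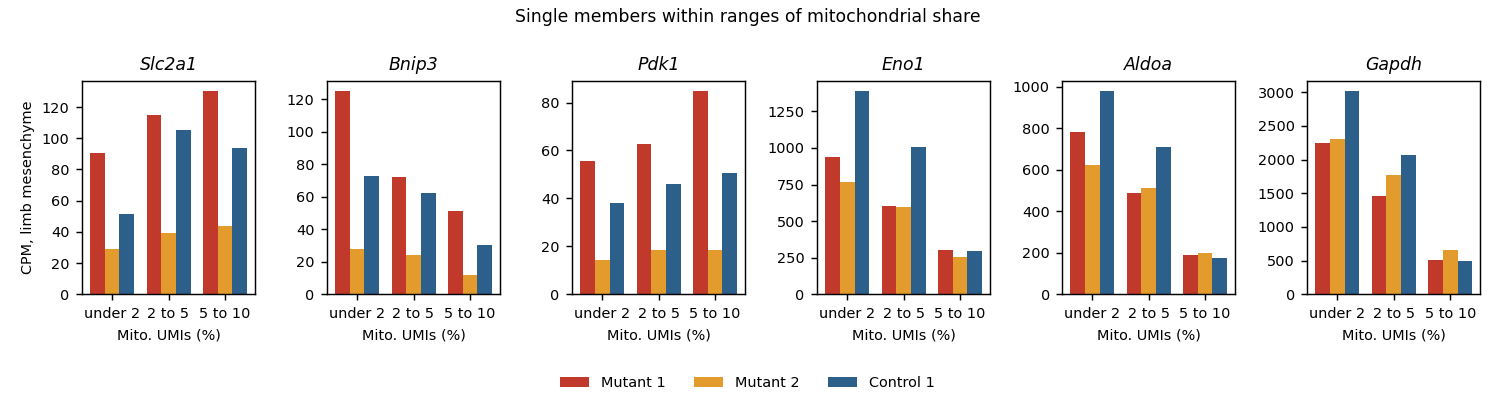
CPM over all UMIs of 6 members in limb mesenchyme cells grouped by mitochondrial share, as bars for mutant 1, mutant 2 and control 1, each a single sum with no error bar. Bnip3 in cells of 5 to 10% stands at 51.5 CPM in mutant 1 and 11.6 CPM in mutant 2, against 30.6 CPM in control 1, and Gapdh there at 511 and 657 CPM, against 500.2 CPM in control 1.

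Depth was related to the members less evenly. Spearman's rho between thinned glycolysis UMIs and the depth of mesenchyme cells was 0.45 in mutant 1 and 0.31 in mutant 2, but -0.24 in control 1. Mesenchyme cells of 5000 to 20000 UMIs, 278 in mutant 1, 382 in mutant 2 and 286 in control 1, had a median mitochondrial share of 6.25% and 5.16% in the mutants, against 0.208% in control 1, and a glycolysis sum of 5601 and 5366 CPM in the mutants, against 13653 CPM in control 1. Slc2a1 in that range stood at 167 CPM in mutant 1 and 51.6 CPM in mutant 2, against 24.6 CPM in control 1, so mutant 2 lay above the control there. In that range 4 of 26 members had the order mutant 1, control 1, mutant 2, against 4.24% of the genes tested. At 50000 UMIs or more, 16 of 26 members had that order, against 17.2% of the genes tested, and 10 stood below the control in both mutants, against 34.5%. Slc2a1 had 151 CPM in mutant 1 and 45.8 CPM in mutant 2, against 67.2 CPM in control 1, in cells of 20000 to 50000 UMIs, and in these deepest cells stood at 78.4 CPM in mutant 1 and 29.6 CPM in mutant 2, against 77.7 CPM in control 1.

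Of 28 further glycolysis genes 14 were tested in mesenchyme, with 0 called by edgeR and a median log2 fold of -0.10. Slc2a3, the glucose transporter GLUT3, had 48.9 CPM in mutant 1 and 13.0 CPM in mutant 2, against 31.8 CPM in control 1, and Slc16a3, the lactate exporter MCT4, had 135 and 51.3 CPM in the mutants, against 126 CPM in control 1. Both were singled out after their values were seen. Of 37 further hypoxia and HIF genes 29 were tested, with 1 called higher, 0 lower and a median of 0.12, and 13 of the 29 stood above the control in mutant 1 and below it in mutant 2, against 22.9% of the genes tested. Above the control in both mutants stood 9 of the 29, against 27.1% of the genes tested, and below it in both 3, against 26.7%. The called gene was Ddit4, with 39.2 CPM in mutant 1 and 14.9 CPM in mutant 2, against 10.7 CPM in control 1, a log2 fold of 1.33 (SE 0.29, adjusted p = 9.2e-04 by edgeR). Vegfa had 58.6 CPM in mutant 1 and 32.9 CPM in mutant 2, against 51.1 CPM in control 1, a log2 fold of -0.16 (SE 0.30). None of 13 mitochondrially encoded and 20 nuclear respiratory chain genes was called by edgeR in mesenchyme, with medians of 0.02 and -0.13. The call of Ddit4 was lost in DESeq2 (adjusted p = 0.360) and in thinned cells (adjusted p = 0.643 by edgeR), and without the mesenchyme clusters lacking control cells its log2 fold was 0.81 (adjusted p = 0.457 by edgeR). The Ddit4 call was also lost with the prior degrees of freedom of the ectoderm fit, under which edgeR called 0 of the 10200 genes tested in mesenchyme.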

How the data were processed

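Single-cell RNA of 3 libraries was analysed from the filtered matrices that the authors deposited, which hold whole UMI counts per gene and barcode, made with Cell Ranger 7.0.0 per the file headers. Seurat 4.0.0 and mm10 are named in the submitters' processing notes; what each was used for is not stated there. Barcodes with at least 500 genes and under 10% mitochondrial UMIs were kept, and Scrublet (expected rate 0.06) removed 96, 122 and 41 doublets in mutant 1, mutant 2 and control 1. A cell entered a class when its marker UMIs reached 0.25 of a typical score with at least 3 markers (2 for myogenic cells) and the second class stayed at or below 0.5 of the best; these limits were set after values were seen. Counts were summed per library and class and tested with edgeR 4.0.16 (TMM scaling, quasi-likelihood, genes averaging 5 CPM or more, Benjamini-Hochberg adjusted p under 0.05), with DESeq2 1.42.0 as an alternative, in R 4.3.3, and handled in Python 3.11.15 with scanpy 1.11.5. The scripts were tested on simulated data. CPM of single members per class are TMM-scaled; module sums, ranges of mitochondrial share or depth and Cdkn1a values are CPM of all UMIs of the sum without that scaling. Intervals (95%) cover counting error only. The genes and lists were chosen with earlier results of these data known. All 31 members are accounted for; values in every library were given for those called and for the 10 with the largest gap between mutants in mesenchyme, and, of other lists, for called genes with Ddit4 and Vegfa. Alternatives changed the scaling, the filters on genes and cells, the gate, the depth and the libraries; the prior degrees of freedom and the clusters left out were chosen after seeing the data.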

Additional observations from a re-analysis of the deposited data

Results flagged for a closer look

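The effect of the mutation on Epas1, tested as an interaction, differed between endothelium and mesenchyme by 1.34 on the log2 scale (adjusted p = 0.00148 by edgeR), and by 1.32 with the scaling of DESeq2 (adjusted p = 0.00203 by edgeR). Epas1 stood at 50.8 and 64.4 CPM in endothelium of mutant 1 and mutant 2, against 39.4 CPM in control 1, and at 0.710 and 0.647 CPM in their mesenchyme, against 1.14 CPM in control 1, where it was below the filter. The effect on P4ha2 differed between erythroid cells and mesenchyme by 2.46 (adjusted p = 0.0465 by edgeR), on 16 and 13 erythroid UMIs in the mutants and 3 in control 1, where it was below the filter and where summed mesenchyme markers stood at 13.0 and 15.96 CPM in the mutants, against 5.70 CPM in control 1, whose part was not tested. Both calls were lost with the prior degrees of freedom of the ectoderm fit (adjusted p = 1.00 by edgeR for each).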

How the results depend on the processing

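No member was called in the mutants over the control in any of the 4 classes under any alternative run. No paired analysis was possible because a single control library served both mutant libraries, and its label carries no replicate number. With 1 mutant left out, the median log2 fold of the tested members ran from -0.52 to 0.14 in mesenchyme, -0.52 to 0.26 in ectoderm, -0.41 to 0.29 in endothelium and -0.25 to -0.02 in erythroid cells. Between classes the library served as a block. Without that replicate block, 4 members were called higher than in mesenchyme and 1 lower in ectoderm, beside 2359 and 2109 of 10665 genes tested. In endothelium they numbered 13 and 0, beside 2804 and 2590 of 10320 genes, and in erythroid cells 3 and 14, beside 3424 and 3747 of 9547. By Cdkn1a UMIs 0 members were called lower without the block, beside 7 of 10334 genes. Thinned cells gave 4 higher and 9 lower in ectoderm, beside 2192 and 2425 of 10771 genes tested. By Cdkn1a UMIs they gave 5 higher, beside 1120 of 10492 genes. With 1 library left out, ectoderm had 6 to 9 members higher and 2 to 5 lower, beside 2108 to 2571 and 1728 to 2530 genes. Endothelium had 16 to 19 higher and 3 to 4 lower, beside 2591 to 3112 and 2633 to 3135 genes. Erythroid cells had 4 to 6 higher and 13 to 14 lower, beside 3324 to 3591 and 3730 to 3865 genes. The genes tested numbered 10583 to 10754, 10257 to 10352 and 9489 to 9583 in these classes. With the prior degrees of freedom of the ectoderm fit, 0 members were called in the endothelial and 0 in the erythroid interaction; both were also 0 with at least 5 CPM asked of each class, a choice made after seeing the data that leaves out Epas1 and P4ha2. The log2 score over all 31 genes at 5 to 10% over under 2% mitochondrial UMIs was -0.47, -0.35 and -0.49 in mutant 1, mutant 2 and control 1 as a mean of log2 values, against -1.51, -1.45 and -1.93 as a log2 of the sum. The cause of these shifts was not tested. Alternatives in flank mesoderm were not run, since mutant 1 held under 50 cells there. Depth limits Car9, tested in no class, and Epas1 and P4ha2 where few UMIs were seen.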
